A study of Mus musculus with 4 samples.

Results

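The genes of the GATA family were examined in the chromatin of mouse peritoneal macrophages. The members were the 5 autosomal genes Gata2, Gata3, Gata4, Gata5 and Gata6. Peaks overlapping by at least 1 bp in any of the 4 libraries were joined into merged regions, and a merged region was assigned to a member when its midpoint lay nearest to a TSS of that gene or when it overlapped the gene body. This gave 21 of 70744 regions: 4 at Gata2, 5 at Gata3, 4 at Gata4, 2 at Gata5 and 6 at Gata6. The X-linked Gata1 was not analysed here, because reads on chromosomes X and Y had been removed by the authors.

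Chromatin accessibility was profiled by ATAC-seq, which uses the Tn5 transposase to cut and tag open DNA, on 40000 sorted large peritoneal macrophages (LPMs) per library. The mice were 9 weeks old and of the C57BL/6 strain. Both groups carried floxed Rxra and Rxrb alleles, the genes of the retinoid X receptors α and β. In LysMCre+ Rxrab fl/fl mice the LysM promoter drove Cre, so that deletion was directed to myeloid cells and was not limited to LPMs, while Rxrab fl/fl mice lacked Cre. The deletion itself was not examined here. Each genotype had 2 libraries, numbered 1 and 3 for Rxrab fl/fl, called control below, and 1 and 2 for LysMCre+ Rxrab fl/fl, called Cre+ below, and all 4 were labelled with 1 library batch. The labels do not say that the libraries came from separate mice, so p values measure only the spread between these samples. The study left out ATAC-seq samples that did not cluster with their group, and that spread may be understated. Values of the 4 libraries are given below in the order control replicates 1 and 3, then Cre+ replicates 1 and 2. The libraries held 38048, 16097, 65421 and 55581 peaks. Control replicate 3 stood apart with the fewest peaks and the lowest median fold enrichment at the 15199 regions called in all 4 libraries, 7.52 against 14.5, 15.1 and 12.0 in the others.

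GATA factors are zinc finger transcription factors that bind DNA at the GATA motif, and each acts in its own set of tissues. GATA2 serves haematopoietic progenitors and mast cells, GATA3 serves T cells and innate lymphoid cells, and GATA4, GATA5 and GATA6 serve the heart and endodermal organs. Resident macrophages of the serous cavities are the exception in that they depend on GATA6, which is induced by retinoic acid in the peritoneum and sustains the identity of LPMs.

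The sequences at the family regions were read from mm10, with gene models from RefSeq, on the plus strand, as 201 bases centred on the strongest summit. The region upstream of Gata3 was the only one outside Gata6 to be called in all 4 libraries, and its sequence is shown for that reason, with a match to the AP-1 motif TGANTCA in capitals.
Gata3 1.045 kb upstream, chr2:9879576-9879776: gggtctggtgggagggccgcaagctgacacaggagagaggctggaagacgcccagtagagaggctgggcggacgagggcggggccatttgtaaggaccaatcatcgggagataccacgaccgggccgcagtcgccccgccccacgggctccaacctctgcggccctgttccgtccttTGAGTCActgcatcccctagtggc
The GATA motif, AGATAA or TGATAA on either strand, was found at 2 of the 21 regions. Both lie far downstream of Gata3 and are shown with the motif in capitals.
Gata3 128 kb downstream, chr2:9750171-9750371: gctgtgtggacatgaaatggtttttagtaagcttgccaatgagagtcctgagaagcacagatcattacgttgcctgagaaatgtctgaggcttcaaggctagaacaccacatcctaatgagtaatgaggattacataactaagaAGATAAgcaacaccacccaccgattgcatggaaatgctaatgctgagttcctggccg
Gata3 197 kb downstream, chr2:9681699-9681899: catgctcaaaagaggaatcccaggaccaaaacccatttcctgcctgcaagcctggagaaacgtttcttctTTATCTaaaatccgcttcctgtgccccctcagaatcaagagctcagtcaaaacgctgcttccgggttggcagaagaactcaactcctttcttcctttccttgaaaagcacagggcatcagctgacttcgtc
The second of these was also among the 5 regions called in both Cre+ libraries and in neither control library. The other 4 of that group are shown because they hold the genotype pattern described further on. Capitals mark a match to the CTCF core consensus on either strand with up to 1 mismatch, a search chosen after these sequences had been seen, in the first 3, and the nuclear receptor half-site AGGTCA, read on the minus strand, in the last.
Gata4 intron 38.0 kb downstream of the TSS, chr14:63207190-63207390: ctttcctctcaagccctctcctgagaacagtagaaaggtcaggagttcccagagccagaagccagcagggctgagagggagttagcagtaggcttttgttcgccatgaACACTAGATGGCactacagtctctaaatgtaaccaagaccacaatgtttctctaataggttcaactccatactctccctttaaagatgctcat
Gata4 10.8 kb upstream, chr14:63255961-63256161: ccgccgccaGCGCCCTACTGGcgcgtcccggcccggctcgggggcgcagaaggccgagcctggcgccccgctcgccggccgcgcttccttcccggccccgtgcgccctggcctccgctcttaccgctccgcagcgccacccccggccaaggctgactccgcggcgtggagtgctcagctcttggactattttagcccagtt
Gata5 12.6 kb upstream, chr2:180347222-180347422: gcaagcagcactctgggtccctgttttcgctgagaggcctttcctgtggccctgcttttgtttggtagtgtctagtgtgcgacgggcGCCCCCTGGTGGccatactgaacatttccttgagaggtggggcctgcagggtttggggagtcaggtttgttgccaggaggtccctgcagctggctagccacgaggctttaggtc
Gata2 4.13 kb upstream, chr6:88189728-88189928: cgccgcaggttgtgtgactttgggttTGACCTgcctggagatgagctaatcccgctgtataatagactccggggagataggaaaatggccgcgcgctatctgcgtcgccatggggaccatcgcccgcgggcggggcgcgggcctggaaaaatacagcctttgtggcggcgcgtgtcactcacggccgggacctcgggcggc
The second TSS of Gata2 carried the strongest peak of that gene. The 250 bases upstream of it, on the plus strand, lie in the first intron of the longer transcript and are shown with their 24 CpG dinucleotides in capitals.
Gata2 upstream of the second TSS, chr6:88198414-88198663: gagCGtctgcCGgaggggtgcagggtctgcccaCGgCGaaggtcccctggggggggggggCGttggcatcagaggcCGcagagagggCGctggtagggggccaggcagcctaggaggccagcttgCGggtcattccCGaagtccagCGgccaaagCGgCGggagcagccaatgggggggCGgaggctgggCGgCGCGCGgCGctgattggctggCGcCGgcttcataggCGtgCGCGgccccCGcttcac

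The 21 regions were spread unevenly over the family. Of them, 6 had their midpoint at a promoter-TSS (from 1 kb before a TSS to 200 bp after it), which is 28.6% against 18.1% of all regions, 11 were intergenic, 2 intronic, 1 in a coding exon and 1 in a non-coding part of an exon. A total of 10 regions lay over 10 kb from the TSS of their gene. Relative to the length of genome nearest to its TSS, Gata5 had 7.58 regions per 100 kb and Gata2 had 6.52, while Gata4 (3.43), Gata6 (3.0) and Gata3 (1.89) were closer to or below the 2.87 regions per 100 kb of chromosomes 1 to 19. These densities count only regions nearest to a TSS of the gene, 4 at Gata6, and were not computed with NM transcripts only.

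**Figure D1:**
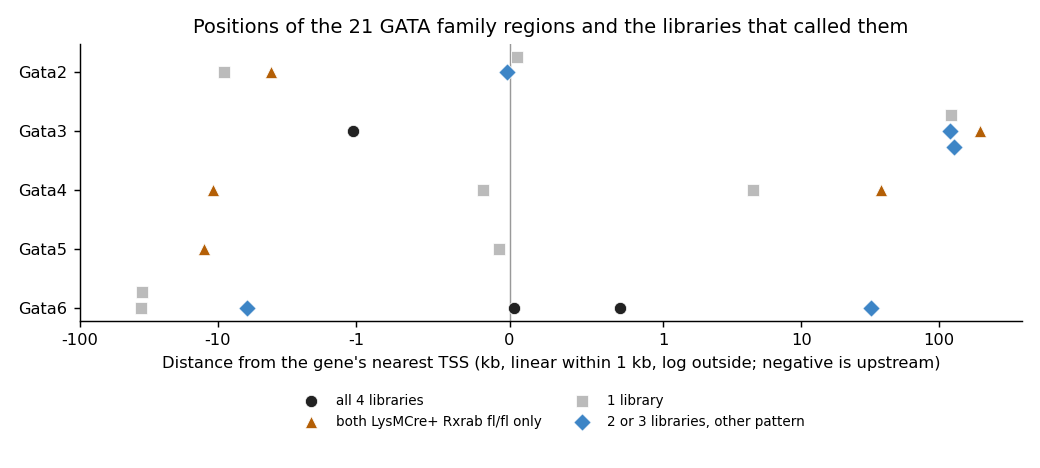
Each of the 21 regions is placed by its distance in kb from the nearest TSS of its gene (linear within 1 kb, log scale outside), with a line per gene, small vertical offsets where regions would overlap, and symbols that show which libraries called it (Cre+ is LysMCre+ Rxrab fl/fl in the key). The 3 black circles, called in all 4 libraries, lie within about 1 kb of the Gata6 and Gata3 TSS, and the 5 orange triangles, called in both Cre+ libraries only, lie at the other 4 genes and none at Gata6.

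Calls at Gata6 were compared with those of the other members. Of the 6 Gata6 regions, 5, 2, 4 and 5 were called in the 4 libraries. The other 4 members together had 15 regions, of which 5, 1, 14 and 8 were called. That sum hides Gata3, at which 4, 1, 4 and 3 of 5 regions were called, close to the shares of Gata6. With NM transcripts only the calls were 4, 1, 7 and 6 of 9 at Gata3 and 13, 5, 15 and 14 of 17 at Gata6. Gata3 was then called at more regions in both Cre+ libraries than in either control library. Gata2 (1, 0, 4 and 2 of 4), Gata4 (0, 0, 4 and 2 of 4) and Gata5 (0, 0, 2 and 1 of 2) were called mostly in Cre+. Over all regions the shares called were 52.0%, 21.9%, 90.7% and 77.2%, and over the family 47.6%, 14.3%, 85.7% and 61.9%. The order of the libraries was thus the same in the family as in all regions. Of the 21 regions, 3 were called in all 4 libraries (14.3%, against 21.5% of all regions), 4 in 3 libraries, 6 in 2 and 8 in 1. The difference between members was not tested.

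The Gata6 promoter region (chr18:11052194-11052881) spans the TSS of Gata6 and that of the antisense transcript Gata6os, and accessibility cannot be assigned to either strand. Its fold enrichment, the deposited ratio of the tag pileup at the summit to the local background with 1 added to both, was 11.3, 7.61, 5.80 and 8.61. The added 1 lowers the ratio most where the local background is low. The pileup itself was 87, 20, 25 and 46 tags. On both measures control replicate 1 was highest, and on fold enrichment the groups overlapped, since Cre+ replicate 2 lay above control replicate 3. The region ranked low or near the middle among the 15199 regions called in all 4 libraries, at percentiles 27.8, 51.0, 2.76 and 22.8 of fold enrichment. It ranked lowest in Cre+ replicate 1. In bulk samples fewer cells with an open site and less signal per cell cannot be told apart.

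A second region 0.721 kb downstream of the Gata6 TSS (chr18:11053029-11053433) lies 147 bp from the first, within the Gata6 gene body and in the promoter-TSS window of Gata6os, so that the pair share much of their local background. Its fold enrichment was 9.64, 4.74, 4.85 and 5.66, with pileups of 74, 12, 21 and 30 tags. Both of these regions were called in every library. The Gata6 region of highest mean log2 fold enrichment over the libraries with a call (3.42, against 3.02 at the promoter) was 6.185 kb upstream, in an intron of Gata6os, with fold enrichments of 9.06, 11.2 and 12.1 in control replicate 1 and Cre+ replicates 1 and 2. It was the only Gata6 region at which both Cre+ libraries exceeded control replicate 1, and no peak was called there in control replicate 3. A region 32.1 kb downstream of the TSS, in the last part of the gene, gave 6.07, 4.30 and 6.90 in the same 3 libraries. Regions 36.2 and 35.5 kb upstream were called in 1 library each, control replicate 1 (4.71) and Cre+ replicate 2 (4.33).

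**Figure D2:**
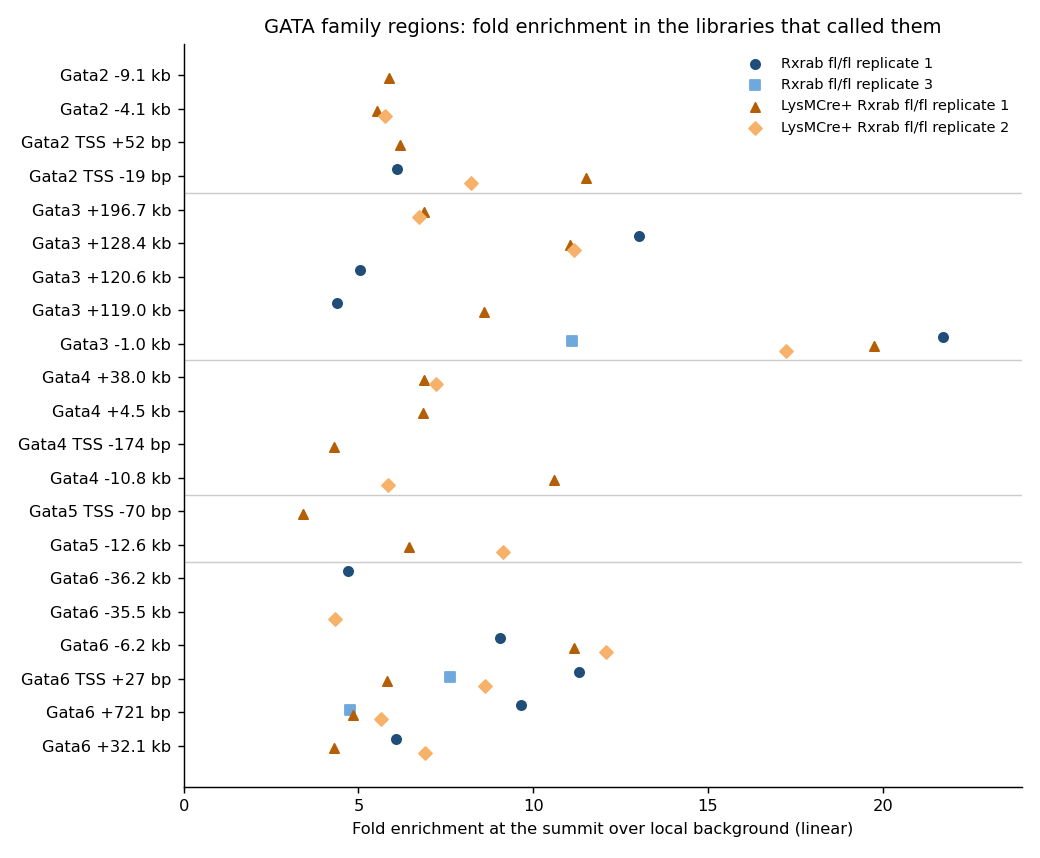
Fold enrichment at the summit (linear axis) of each of the 21 regions in every library that called it, listed by gene and distance from the TSS and marked TSS at a promoter-TSS of the gene. A missing symbol means that no peak was called in that library. The Gata3 region 1.0 kb upstream reaches the highest value, 21.7, and the Gata6 promoter spans 5.80 to 11.3.

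Whether the family regions differed between genotypes was tested for those called in all 4 libraries, on log2 fold enrichment centred on the median of each library, with limma over all 15199 regions. Centred values at the Gata6 promoter were −0.36, 0.02, −1.38 and −0.48, and at the region 0.721 kb downstream they were −0.59, −0.66, −1.64 and −1.09. At both, the Cre+ libraries lay below both control libraries, a pattern seen in 32.8% of all 15199 regions, against 22.3% with the opposite order. The promoter differed by −0.76 in log2 fold enrichment (SE 0.280, limma adjusted p = 0.148) and the second region by −0.74 (SE 0.232, limma adjusted p = 0.106), Cre+ minus control. Neither passed the threshold, which asks for an adjusted p under 0.05 together with a log2 fold change past 1. Of all regions, 3.38% and 3.82% had a lower log2 fold change than these. On leaving out each library, that share ran from 0.326% to 27.0% at the promoter and from 0.754% to 16.1% at the second region. After quantile normalization it was 3.65% and 11.5%. With 2 libraries per genotype a two-sided exact permutation test over the samples cannot go below 0.333.

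Of the 3 family regions tested, 0 passed this threshold, against 13 of 15199 regions in all (0.0855%), 6 higher and 7 lower in Cre+. At an unadjusted limma p under 0.05 there were 2 of 3 family regions and 3344 of 15199 regions (22.0%). Those 2 were the neighbouring Gata6 pair, which share much of their local background and are not separate observations. The count over all regions rose to 789 without control replicate 1 and to 1181 without control replicate 3, while that of the family was 0 in both. The split of the calls depended on the scale, with 8 higher and 1 lower after quantile normalization, 379 and 757 on the summit pileup, and 7 and 0 on the pileup per background tag. Without control replicate 1 the Gata6 promoter stood at −0.95 and the second region at −0.70, and 4.69% and 13.0% of all regions were lower. Without control replicate 3 the second region was at −1.11. Over all alternatives the adjusted p reached 0.9996 at both. The estimate at the promoter was −0.31 without Cre+ replicate 1 and −1.21 without replicate 2 of that genotype, and at the second region −0.46 and −1.01, so that 1 library set much of their size.

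The size of the difference at Gata6 depended on the scale. On the centred summit pileup it was larger, −1.16 (limma adjusted p = 0.0913) at the promoter and −1.11 (limma adjusted p = 0.0671) at the region 0.721 kb downstream. After quantile normalization it was smaller, −0.65 (limma adjusted p = 0.170) at the promoter and −0.45 (limma adjusted p = 0.243) at the region 0.721 kb downstream. On fold enrichment without centring it was −0.39 at the promoter and −0.37 at the region 0.721 kb downstream (SE 0.499 for both), while the median of all regions was 0.28. Divided by the lowest background of the library, the promoter pileup was 44.2, 18.9, 18.8 and 42.6, and the groups overlapped. That lowest background was 1.97, 1.06, 1.33 and 1.08 tags, highest in control replicate 1. On this scale, chosen after seeing the data and used without centring, the log2 difference was −0.03 (SE 0.715, limma adjusted p = 0.977) at the promoter and 0.03 (SE 0.715, limma adjusted p = 0.978) at the region 0.721 kb downstream. The median log2 difference of all regions was 1.03 on the same scale. Library medians were 49.2 and 18.9 in control and 74.6 and 60.2 in Cre+, a log2 shift of 1.14. Relative to the median difference of 1.03 the Gata6 pair differed by −1.06 and −1.01. The estimate at the promoter was thus negative on each scale run and near 0 per background tag, where that of the second region changed sign.

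**Figure D3:**
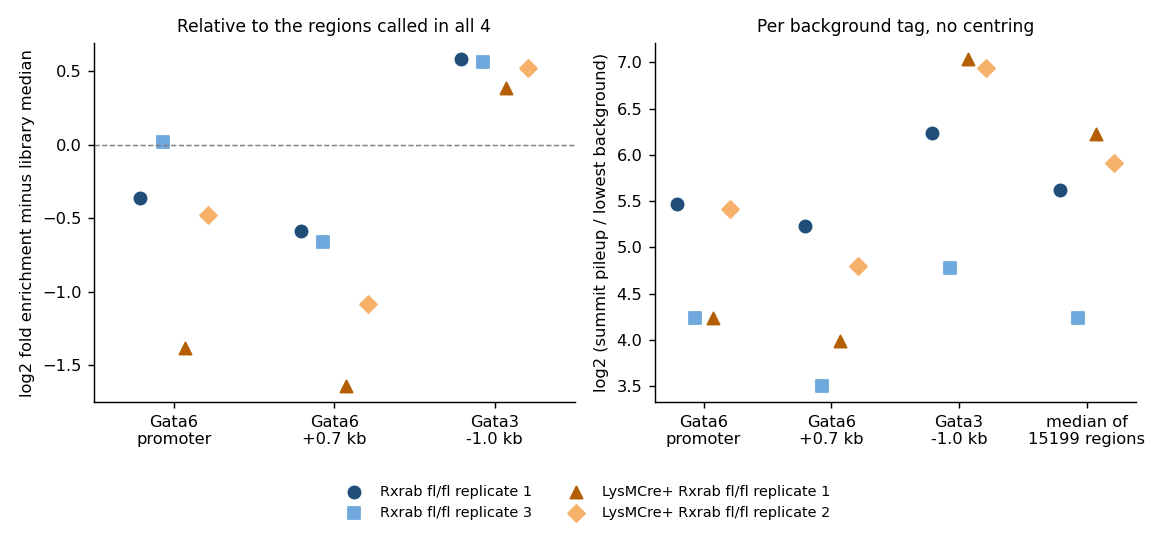
The 3 family regions called in all 4 libraries on 2 scales, 1 symbol per library. Left, log2 fold enrichment minus the median of the library, with 0 as the dashed line. Right, log2 of the summit pileup over the lowest background of the library, beside the median of the 15199 shared regions. The Gata6 pair lies lower in Cre+ on the left, and overlaps between genotypes on the right, where the median of all regions is higher in Cre+.

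Every library was also held to its 16097 peaks of lowest q value, which formed 22300 regions, of which 4 belonged to the family. The Gata6 promoter and the region 0.721 kb downstream were then called in both control libraries and in neither Cre+ library, a pattern of 7.22% of all regions. The region upstream of Gata3 was called in all 4 libraries and that 128 kb downstream of Gata3 in control replicate 1. The lowest −log10 q kept was 30.4, 1.36, 46.8 and 28.4, so that control replicate 3 kept its whole list and a far weaker peak sufficed there. The −log10 q of the Gata6 promoter was 61.0, 12.1, 11.6 and 27.9, which missed the limit narrowly in Cre+ replicate 2. As a share of the peaks of its own library at or above it, the promoter stood at 25.2%, 47.9%, 65.5% and 29.4%, and the groups overlapped. Nothing on genotype is read from these calls.

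Gata3, the regulator of T helper and innate lymphoid cells, carried the highest fold enrichment of the family. The region 1.045 kb upstream of its TSS (chr2:9879333-9879958), with its midpoint just outside the promoter-TSS window and its near edge inside it in every library, gave 21.7, 11.1, 19.8 and 17.2, with pileups of 149, 29, 174 and 132 tags. It ranked at percentiles 88.6, 79.7, 77.5 and 83.9 of the shared regions, far above the Gata6 promoter in every library. Its centred log2 values were 0.58, 0.56, 0.38 and 0.52, and here too both Cre+ libraries lay below both control libraries, as at 32.8% of all regions. The log2 difference between genotypes was −0.12 (SE 0.206, limma adjusted p = 0.756) in fold enrichment, and ranged from −0.46 without control replicate 3 to −0.05 without Cre+ replicate 1. It was 1.48 (limma adjusted p = 0.175) in pileup per background tag, where both Cre+ libraries (131 and 122) lay above both control libraries (75.6 and 27.3). The local background at this region, in multiples of the lowest background, was also higher in Cre+, at 5.93 and 6.23 against 3.0 and 1.6.

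The other Gata3 regions lay 119 to 197 kb downstream of its TSS. The strongest, 128 kb downstream and with the GATA motif shown above, gave 13.0 in control replicate 1 and 11.0 and 11.2 in Cre+, and no peak in control replicate 3. Its pileup was 60 tags in control replicate 1 against 33 and 26. The region 197 kb downstream was called in Cre+ only, at 6.88 and 6.73. The region 119 kb downstream gave 4.38 in control replicate 1 and 8.60 in Cre+ replicate 1, and that 121 kb downstream gave 5.05 in control replicate 1 alone.

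Gata2, the regulator of haematopoietic progenitors and mast cells, has 2 TSS, and each held a region. At the second TSS (chr6:88198430-88198860) fold enrichment was 6.10 in control replicate 1 and 11.5 and 8.22 in Cre+, with pileups of 24, 61 and 34 tags. Both Cre+ libraries lay above the control library with a peak, and no peak was called in control replicate 3, so the region entered no test. At the first TSS (chr6:88193820-88194067) a peak was called only in Cre+ replicate 1, at 6.18. The region 4.13 kb upstream was called in both Cre+ libraries, at 5.52 and 5.77, and that 9.05 kb upstream only in replicate 1 of that genotype, at 5.88.

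Gata4 and Gata5, regulators of heart and endoderm development, had no called peak in either control library. The strongest Gata4 region, 10.8 kb upstream (chr14:63255863-63256240), gave 10.6 and 5.83 in the Cre+ libraries, with pileups of 27 and 13 tags. An intronic region 38.0 kb downstream of the Gata4 TSS gave 6.88 and 7.21. This region lies nearest to the TSS of Neil2 and was assigned to Gata4 by its gene body. The Gata4 promoter-TSS (chr14:63245305-63245586) and a coding exon 4.47 kb downstream had peaks in Cre+ replicate 1 only, at 4.29 and 6.85. The strongest Gata5 region, 12.6 kb upstream (chr2:180347114-180347457), gave 6.45 and 9.14. The Gata5 promoter-TSS (chr2:180334650-180334849) gave 3.42 in Cre+ replicate 1, the lowest fold enrichment of the family, from a pileup of 7 tags. Pileups at the 6 regions lay between 7 and 27 tags, and a peak absent from a list does not show closed chromatin at these depths.

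A total of 5 regions were called in both Cre+ libraries and in neither control library, which is 23.8% of the family against 22.8% of all regions, so the family share was near that of the genome. They were 2 at Gata4 and 1 each at Gata2, Gata3 and Gata5, and 0 of the 6 Gata6 regions. That 0 did not hold throughout, being 2 of 17 with NM transcripts only, 2 of 5 without control replicate 1 and 1 of 6 without Cre+ replicate 1. All regions stood there at 22.8%, 49.2% and 36.4%. The Gata6 counts are small, and their difference from those shares was not tested. The opposite pattern was found at 0 of 21 regions and at 0.0452% of all regions. Without control replicate 3 it was found at 2 of 21 (9.52%), 1 at Gata6 and 1 at Gata3, and at 1.78% of all regions. Without a call in either control library were 11 family regions (52.4%, against 47.8% of all regions), namely 1 of 6 at Gata6, 1 of 5 at Gata3, 3 of 4 at Gata2, 4 of 4 at Gata4 and 2 of 2 at Gata5. The count of 5 rose to 9 of 19 without control replicate 1 and to 10 of 20 without Cre+ replicate 2, beside 49.2% and 44.3% of all regions. When every library was held to 16097 peaks it was 0, beside 7.82% of all regions. The part of peak number in this pattern was not tested further.

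**Figure D4:**
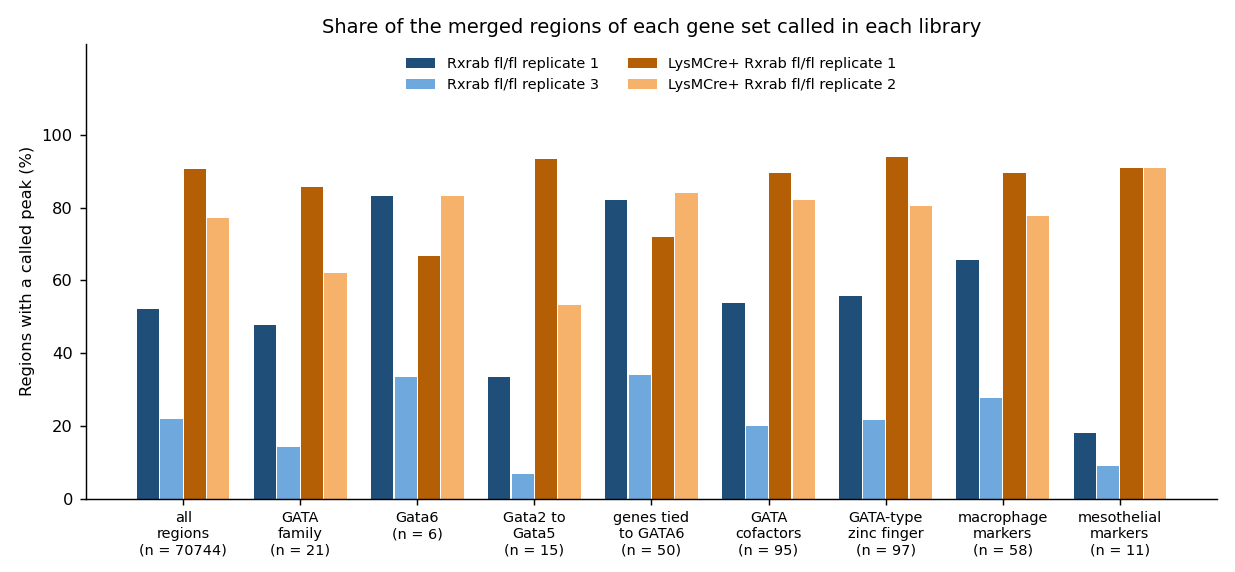
Share of regions (%) with a called peak in each library, as bars from 0, for all regions, the GATA family, Gata6, the other 4 members and 5 gene lists, with the number of regions under each. Gata6 and the genes tied to GATA6, mostly regions of Ltbp1 (27 of 50), have similar shares in control replicate 1 and in the Cre+ libraries. The bars of the other 4 members pooled are higher in both Cre+ libraries. Those of Gata3 within them (80% in control replicate 1, 80% and 60% in Cre+) are not. With NM transcripts only, Gata3 stood at 44.4% in control replicate 1 and at 77.8% and 66.7% in Cre+.

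The sequence around the strongest summit, 100 bp on either side, was searched on both strands. The GATA motif was found at 2 of 21 regions (9.52%, against 10.6% of all regions), both at Gata3, and at none of the Gata6 regions. The half-site AGGTCA was found at 2 of 21 (9.52%, against 13.0%), and a pair of half-sites in one orientation separated by 1 base or by 5 bases, arrangements bound by RXR heterodimers, at 0 of 21 (against 0.0311% and 0.0226% of all regions). The core GAGGAA of PU.1, a factor of the macrophage lineage, was found at 7 of 21 (33.3%, against 36.0%), and the AP-1 motif TGANTCA at 2 of 21 (9.52%, against 12.7%). None of these shares stood far above that of all regions. The family windows were richer in G and C, with a median of 59.2% against 51.7% of all regions and 64.7% of all promoter-TSS regions.

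The CTCF core consensus and its allowance of 1 mismatch were both chosen after these sequences had been seen. With up to 1 mismatch the consensus was found at 3 of 21 regions and 11.6% of all regions, and without a mismatch at 1 of 21, the Gata5 region 12.6 kb upstream, and 3.90% of all regions. The 3 regions, those shown above at Gata4 and Gata5, were all among the 5 called in Cre+ only. Because of the order of these choices nothing is read from that count. Over all regions called in both Cre+ libraries only, 16.7% held the consensus with up to 1 mismatch and 6.37% without, against 4.80% and 0.934% of regions called in all 4 libraries. With up to 1 mismatch it was also rarer at promoter-TSS regions (5.88%) than at other regions (12.8%). The part of promoters in that contrast was not tested.

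The promoter table of RefSeq for GRCm38.p6, from 250 bases before to 50 bases after a gene start, held 3 of the 5 members. Its entries for Gata2 had 32 and 29 CpG dinucleotides per 300 bases, that for Gata3 had 22 and that for Gata5 had 26, against a median of 7 over 32851 entries. All of these entries were above that median. The promoter-TSS window of Gata3 held no midpoint of a region, and was reached only by the near edge of the region upstream.

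The regions most like the Gata6 promoter were sought by the Euclidean distance between the 4 centred log2 fold enrichment values, over 15197 regions. The nearest were at the promoter of Usp3 (0.203), 60.9 kb upstream of Fam20c (0.255), near the TSS of Itgb1bp1 (0.301), in an intron nearest to Rnu12 (0.317) and at the promoter of Ifi207 (0.329). The median distance over all regions was 1.63, and 52 regions lay within 0.5. The profile of the Gata6 promoter was therefore shared by other regions.

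Genes that act with GATA factors were examined as lists. The 5 genes tied to GATA6 in peritoneal macrophages (Aspa, Tgfb2, Ltbp1, Icam2 and Alox15) had 50 regions, of which 41, 17, 36 and 42 were called, and 4 (8.0%, against 22.8% of all regions) were called in both Cre+ libraries only. Over all regions the shares called were 52.0%, 21.9%, 90.7% and 77.2%. The regions of the list were called about as often in control replicate 1 as in Cre+. Ltbp1 made up 27 of the 50 (22, 7, 17 and 21 called), with 1 called in both Cre+ libraries only. Icam2 held the other 3 of that pattern among its 9 regions (5, 4, 7 and 9 called). Of 17 regions called in all 4 libraries, limma called 0, while 3 had an unadjusted p under 0.05 (22.0% of all regions), and the median log2 difference was −0.13 against −0.09 of all regions. The lowest was 35.9 kb upstream of Ltbp1, a gene of TGF-β storage in the matrix, with fold enrichments of 10.1, 6.36, 4.44 and 5.65 and a log2 difference of −1.05 (limma adjusted p = 0.0659), the groups not overlapping, as at 32.8% of all regions in this direction. The highest was 36.9 kb upstream of Icam2, an adhesion molecule and LPM marker, with 6.71, 4.85, 13.3 and 10.1 and a log2 difference of 0.65 (limma adjusted p = 0.128). Estimates for these genes thus lay on both sides of the median of all regions.

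The 8 cofactor genes of GATA proteins (Zfpm1, Zfpm2, Ldb1, Lmo2, Tal1, Lyl1, Runx1 and Spi1) had 95 regions, with 51, 19, 85 and 78 called. Of the 95, 19 (20%) were called in both Cre+ libraries only, against 22.8% of all regions. Runx1 held 47 of the 95 regions and 11 of those 19. The shares called over the list were near the 52.0%, 21.9%, 90.7% and 77.2% of all regions. Of 18 tested, limma called 0, with 5 at an unadjusted p under 0.05 (22.0% of all regions) and a median log2 difference of −0.21. The promoter of Lyl1, a partner of the LMO2 and LDB1 complex, gave fold enrichments of 8.42, 5.74, 3.78 and 3.70 and the lowest log2 difference, −1.26 (limma adjusted p = 0.0546). Of 2 promoter regions of Lmo2, the bridging factor of that complex, the 1 tested gave 6.51, 6.93, 5.94 and 3.74 and −0.88 (limma adjusted p = 0.122). The strongest Lmo2 region went the other way, with 9.62 in control replicate 1 and 16.6 and 14.2 in Cre+. It had no call in control replicate 3 and was not tested. A region 17.7 kb upstream of Zfpm1, which encodes the GATA cofactor FOG1, gave 10.7, 4.62, 19.1 and 13.9 and the highest, 0.84 (limma adjusted p = 0.0736). The Zfpm1 promoter went the other way, at −0.54 (limma adjusted p = 0.211). The Lyl1 and Lmo2 promoters and the region upstream of Zfpm1 were chosen after their values were seen, and none passed the threshold. In pileup per background tag they differed by 0.80 at Lyl1, 0.57 at Lmo2 and 2.52 at Zfpm1, where the median of all regions was 1.03. The sign at Lyl1 and at Lmo2 thus changed with the scale. The groups of these 3 regions did not overlap after centring, as at 32.8% of all regions with Cre+ lower and 22.3% with Cre+ higher.

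The other genes with a GATA-type zinc finger (Trps1, Gatad1, Gatad2a, Gatad2b, Zglp1, Rere, Mta1, Mta2 and Mta3) encode mainly subunits of chromatin complexes. They had 97 regions, 0 of them at Zglp1, with 54, 21, 91 and 78 called, beside 52.0%, 21.9%, 90.7% and 77.2% of all regions. Of the 97, 24 (24.7%, against 22.8% of all regions) were called in both Cre+ libraries only. Of 21 tested, limma called 0, with 4 at an unadjusted p under 0.05 (22.0% of all regions) and a median log2 difference of −0.11, and they ranged from −0.58 to 0.50. The promoter of Gatad2b gave 24.8, 16.5, 20.6 and 16.9, above the Gata6 promoter in every library.

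**Figure D5:**
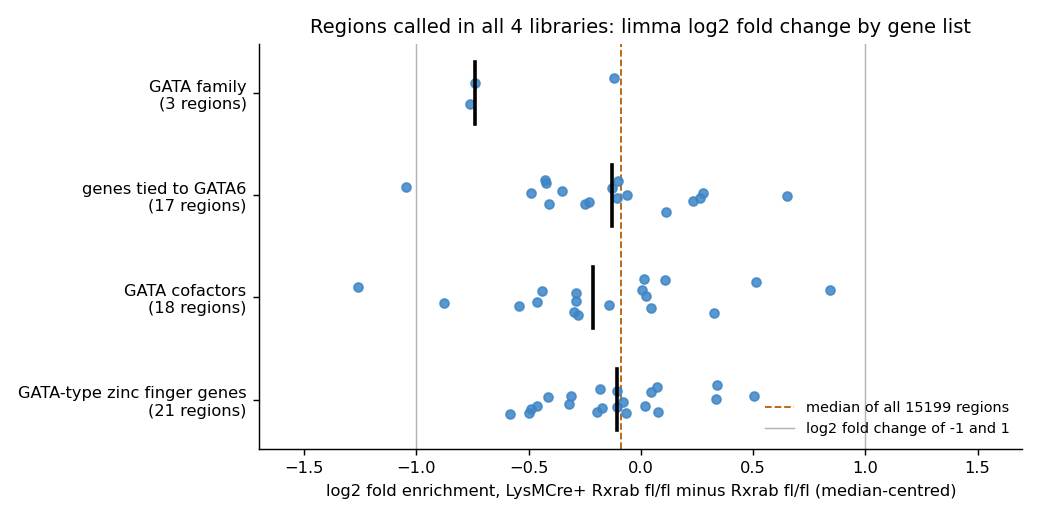
Log2 fold enrichment difference (Cre+ minus control, median-centred, limma) of each region called in all 4 libraries, 1 point per region, by gene list. Black bars are list medians, the dashed line is the median of all 15199 regions (−0.09) and grey lines mark −1 and 1. The 2 Gata6 points lie at −0.76 and −0.74 and the Gata3 point at −0.12, near the median of all.

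The sorted cells were checked against marker genes. Regions of 6 macrophage markers numbered 58, with 38, 16, 52 and 45 called, and a promoter-TSS peak was called at 3, 3, 4 and 4 of those genes. Of all regions, 52.0%, 21.9%, 90.7% and 77.2% were called in the 4 libraries, and 22.8% in both Cre+ libraries only. That last share was 8.62% at macrophage markers, 16.7% at LPM markers and 14.8% at markers of small peritoneal macrophages or monocytes. The autosomal LPM markers Timd4 and Icam2 had 18 regions, with 12, 7, 13 and 16 called, and both had a promoter-TSS peak in every library, while the X-linked Vsig4 was not analysed here. Of 16 macrophage regions tested limma called 0, with 4 at an unadjusted p under 0.05 and a median log2 difference of −0.26, and of 7 LPM regions 0, with 1 and a median of 0.07. Markers of small peritoneal macrophages or monocytes had 27 regions (15, 5, 22 and 19 called), with promoter-TSS peaks at 2, 1, 3 and 2 of 4 genes. The 4 tested were 3 of Irf4 and 1 of Ly6c2, of which limma called 0, with 3 at an unadjusted p under 0.05 (22.0% of all regions). Their log2 differences had a median of 0.45 (−0.09 over all regions) and ran from −0.86, at Ly6c2, to 0.71, at Irf4. Their part in the lower estimates at Gata6 was not tested. Called promoter peaks in all 4 libraries were not limited to the LPM markers, since Irf4, of the list of small macrophages or monocytes, had them too (15.9, 6.37, 18.1 and 12.8). The rest of that list did not. Cd209a had no promoter peak in control replicate 3 (4.04, 6.02 and 9.68 in the others). Ly6c2 had a promoter peak in Cre+ replicate 1 only (4.73), and Ccr2 in no library.

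Markers of other peritoneal cells, several of which use Gata2, Gata3, Gata4 or Gata6 themselves, had a promoter-TSS peak at 0 genes in any library. Mast cell markers had 3 regions (0, 0, 3 and 1 called) and 0 at Cpa3, Mcpt4 and Fcer1a. Eosinophil markers had 11 (7, 3, 10 and 10), T cell markers 4 (2, 1, 4 and 3) and B cell markers 4 (1, 0, 3 and 2). These counts stand beside 52.0%, 21.9%, 90.7% and 77.2% of all regions called. The single Cd3d region, outside its promoter-TSS, gave fold enrichments of 20.8, 9.60, 24.6 and 18.2, near those of the region upstream of Gata3. The other T cell markers differed from it, with 0 regions at Cd3g and Cd8a. The 1 region at Cd3e was called in Cre+ replicate 1 only (4.73), and Cd4 had 2 regions with no call in control replicate 3. Mesothelial markers had 11 (2, 1, 10 and 10) and 0 at Wt1, with the strongest Upk3b region at 11.7 and 12.4 in Cre+. Of the 11 mesothelial regions, 7 (63.6%) were called in both Cre+ libraries only, against 22.8% of all regions. That share was 33.3% at mast cell, 27.3% at eosinophil, 25.0% at T cell and 0% at B cell markers. Of the regions tested, 3 of eosinophil markers had a median log2 difference of 0.43 and limma called 0, with 1 at an unadjusted p under 0.05. The 1 mesothelial region tested stood at 0.62 and the 1 T cell region at 0.22, and limma called 0 of them, with 1 and 0 at an unadjusted p under 0.05. The gate that the study lists for resident macrophages (CD45+ B220- CD11b+ CD115+ F4/80hi MHCIIlo) selects against mesothelial cells, T cells and B cells. The study lists a separate gate for eosinophils (CD45+ F4/80+ CD11b+ TIM4- MHCII-) and no gate for mast cells. The sort for ATAC-seq is described only as of LPMs. The part of such cells in the calls at Gata2, Gata3, Gata4 and Gata5 was not tested.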

How the data were processed

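Per the labels and the study's methods, the authors trimmed ATAC-seq reads with cutadapt (1.7 in the labels, 1.7.1 in the methods), aligned them to mm10 with Bowtie2, removed duplicate, mitochondrial, X and Y reads and those of mapping quality under 30, called peaks in each library with MACS2 2.1.1 (no model, extension of 200 bp, q of 0.05) and removed blacklisted regions with bedtools 2.24.0. In the lists as deposited by the authors, each peak carries its fold enrichment, a ratio of summit pileup to local background, with a −log10 p-value and a −log10 q-value. The integer score that MACS2 wrote in the deposited lists for display was not used. The summit pileup and local background in tags were solved from the deposited ratio and −log10 p-value, assuming the Poisson model of MACS2 and a pseudocount of 1 in the ratio; the genome size and any control used by MACS2 are not given in the sources used here.

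Peaks sharing at least 1 bp were merged across the 4 libraries, and the strongest peak of a library stood for it. TSS and gene bodies came from RefSeq (NM and NR transcripts, chromosomes 1 to 19), and a region was placed by its midpoint. Given in full were the strongest region of each gene, those at its promoter-TSS and those called in all 4 libraries; other regions named singly were chosen after their values were seen. Regions called in all 4 libraries were compared with limma 3.58.1 (R 4.3.3), with Benjamini-Hochberg adjustment over all of them, after a test on simulated data. Motifs were searched 100 bp either side of the summit with Python 3.11.15. The members and gene lists were chosen with earlier results of these data known. The pileup over the lowest background and the CTCF consensus were added after the data were seen. The alternatives are given in the closing section.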

Additional observations from a re-analysis of the deposited data

How the results depend on the processing

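The count of 21 family regions was 4 with the same number of peaks per library and 36 with NM transcripts only, and that of regions called in LysMCre+ Rxrab fl/fl only was 0 and 9, against 5, and 5 to 10 on leaving out each library (7.82%, 22.8% and 22.9% to 49.2% of all regions). The count of all regions past the limma threshold, 13, was 1136 on summit pileup, 0 without centring (801 at an unadjusted p under 0.05), 137 with a mean-variance trend, 7 on pileup over the lowest background, and 12 to 1181 on leaving out each library. The family count stayed at 0 in all 12 alternatives run for it. The Gata3 region 1.0 kb upstream turned from −0.12 to 0.34 on summit pileup, 0.25 without centring and 1.48 on pileup over the lowest background, and the Gata6 region 0.7 kb downstream from −0.74 to 0.025 on the last scale; the cause was not tested. No paired analysis was possible because the groups share only replicate number 1. With 1 library left in a genotype, that library was assumed to vary like the others. Limits are the 2 libraries per genotype, the 16097 peaks of Rxrab fl/fl replicate 3, which leave most family regions without a value there, and the peak lists themselves, which give no signal where no peak was called. The fold enrichment of a weak peak rests on few tags.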
